A study of Mus musculus with 12 samples.

Results

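The 6 genes described here encode the core of leukemia inhibitory factor (LIF) signalling to STAT3: the receptor chains Lifr and Il6st, the kinases Jak1 and Jak2, the transcription factor Stat3 and the feedback inhibitor Socs3. They were taken by gene symbol, and all 6 were found among the 24421 symbols of the deposited count tables. The data are RNA-seq counts from 12 libraries of embryonic stem cells (ESCs) of the mouse, of the androgenetic haploid kind, whose single chromosome set comes from the father. The study compared cells labelled as knockouts of Etl4, a gene for a large coiled-coil protein, with wild-type (WT) cells in a pair of parental lines, OdG and EG1. All lines have a C57BL/6 background. The groups were OdG Etl4 knockout (KO) line 2 (2 libraries), OdG KO line 1 (2 libraries), OdG WT (2 libraries), EG1 Etl4 KO (3 libraries, 1 line) and EG1 WT (3 libraries). The sources used here do not describe the making of the KO lines, the culture medium or any sorting of haploid cells. The labels do not say whether replicate libraries are separate cultures. The p-values therefore measure the spread between libraries alone, and this spread may be technical.

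LIF is the cytokine that keeps mouse ESCs self-renewing in culture. It binds LIFR, which pairs with the shared signal transducer gp130 (the product of Il6st), and kinases of the Janus family (JAKs) bound to these chains phosphorylate STAT3, which enters the nucleus and activates pluripotency genes. STAT3 also induces Socs3, whose protein binds gp130 and JAKs and shuts the signal down. The same receptor feeds a branch through SHP2 (Ptpn11) and adaptors such as GAB1 and GRB2 to the kinase ERK, which favours differentiation in ESCs.

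The OdG libraries held 16110028 to 18774032 counts each, and the EG1 libraries 17421260 to 19706599. Etl4 itself had 1591 to 2034 counts in the OdG KO libraries, against 3467 to 3630 in OdG WT, and 2284 to 2352 counts in EG1 KO, against 4708 to 5147 in EG1 WT. Transcript counts thus remained at 53.8% of the WT level in line 2, 47.6% in line 1 and 50.2% in EG1 KO, and they do not show whether the protein was lost. ESC markers were present in every library. The sum of 10 of them was 5840 to 5850 CPM in line 2, 6100 to 6180 CPM in line 1 and 5410 to 5550 CPM in OdG WT (counts divided by library size, with 1 set of TMM factors over the 12 libraries, as in all CPM values here), against 7670 to 7880 CPM in EG1 KO and 7770 to 7930 CPM in EG1 WT. Of these 10, Dppa3 was scarce in EG1. It averaged 0.982 CPM in EG1 KO and 0.949 CPM in EG1 WT, against 20.3 to 24.2 CPM in the OdG groups. Of 14 feeder fibroblast markers, the summed level was 47.3 to 49.1 CPM in line 2, 87.8 to 93 CPM in line 1 and 126 to 131 CPM in OdG WT, and Fap was at 0 in all 12 libraries. Of the 8 feeder markers tested in OdG, 0 were called higher and 5 lower in line 2, and 1 was higher and 2 lower in line 1. In line 1 the lower sum came from Fbln2 (mean 40.9 CPM, against 68.3 in OdG WT) and Pdgfrb (15.2, against 30.3), while Tagln was higher (9.40, against 5.35). The same sum was 27.4 to 31.2 CPM in EG1 KO and 27.1 to 28.9 CPM in EG1 WT. Of 14 primitive endoderm markers, the sum was 580 to 591 CPM in line 2, 913 to 925 CPM in line 1 and 1030 to 1080 CPM in OdG WT, against 1110 to 1160 CPM in EG1 KO and 1040 to 1050 CPM in EG1 WT. Sparc was the largest part of it, with a mean of 324 CPM in line 2, 548 CPM in line 1 and 619 CPM in OdG WT. Gata4 and Dab2 had higher means in line 2 than in OdG WT (2.74 against 2.39 CPM, and 2.58 against 1.95 CPM), and neither was called. In line 2, 6 of the 14 markers averaged under 1 CPM. Of the 11 endoderm markers tested in OdG, 0 were called higher and 5 lower in line 2, and 1 was higher and 3 lower in line 1. For both marker lists, the shares of all genes called higher and lower were 30.0% and 29.8% in line 2, and 26.8% and 26.1% in line 1. These sums move with the OdG groups, and their part in the results below was not tested. In bulk libraries, fewer cells of a type and less RNA per cell cannot be told apart.

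In OdG cells, both Etl4 KO lines had higher Socs3 and Lifr and lower Stat3 transcript than WT, while Il6st and Jak1 differed from WT in opposite directions in the 2 lines. In EG1 cells, Lifr was the only one of the 6 genes that passed the test. A gene was called at an adjusted p under 0.05 from edgeR's quasi-likelihood test, fitted to the whole table with Benjamini-Hochberg adjustment. All adjusted p-values below come from that test, and ± after a log2 fold change is its standard error (SE). In line 2, 4 of the 6 genes were called higher and 2 lower than OdG WT, where 30.0% of all tested genes were called higher and 29.8% lower. In line 1, 3 were higher and 2 lower, beside 26.8% and 26.1% of all genes. For the mean of both lines, 3 were higher and 1 lower, beside 29.4% and 30.5% of all genes. In EG1 KO, 1 was higher and 0 lower than EG1 WT, beside 3.60% and 4.06% of all genes, and 2953 of the 14016 genes tested had an unadjusted p under 0.05. All 6 genes passed the filter on low counts in every fit.

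**Figure D1:**
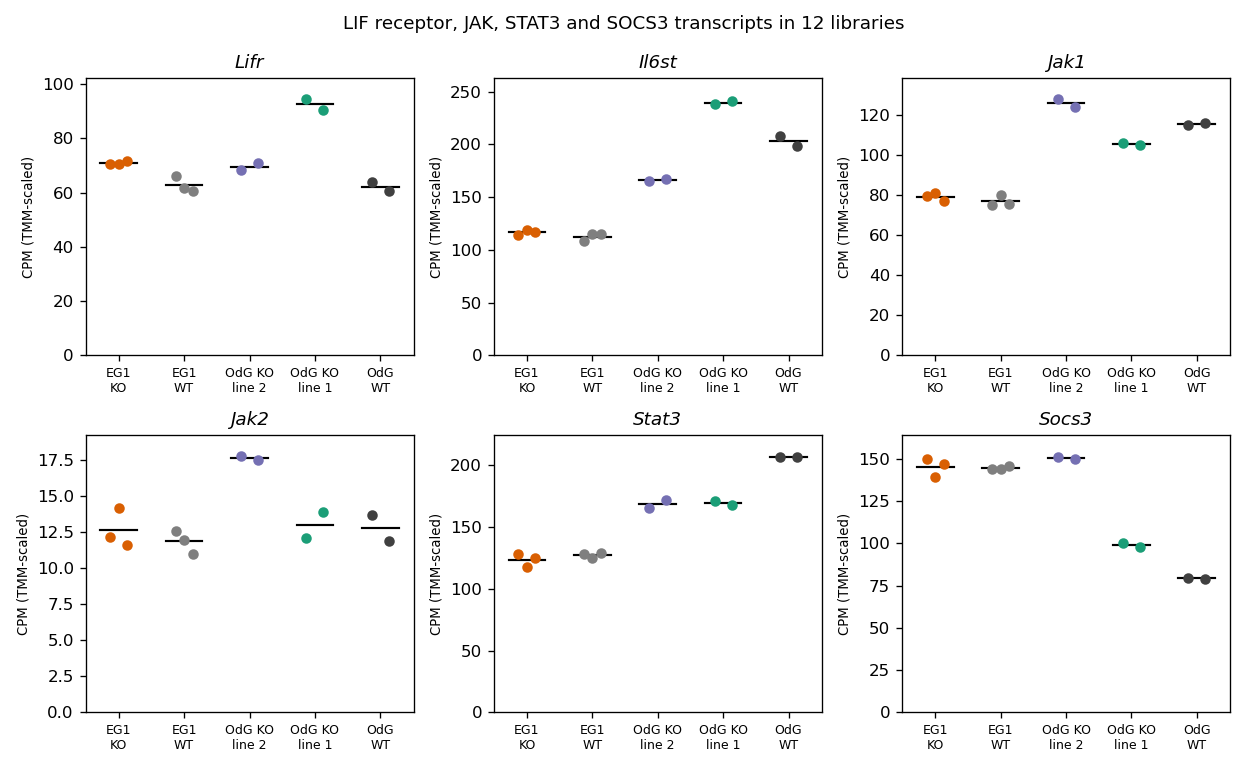
TMM-scaled CPM of the 6 genes on the y axis in each of the 12 libraries, by group on the x axis. Each point is 1 library and the bar is the group mean. Socs3 lies at 150 to 151 CPM in OdG KO line 2, against 79.1 to 79.7 CPM in OdG WT, and Stat3 lies at 165 to 172 CPM in both OdG KO lines, against 207 CPM in OdG WT.

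Lifr encodes the LIF-binding receptor chain (mm10 chromosome 15, 7090614 to 7197489, plus strand). Its level was 68.2 and 70.9 CPM in OdG KO line 2, 94.6 and 90.5 CPM in line 1, and 63.8 and 60.6 CPM in OdG WT. Every KO library lay above both WT libraries, and line 1 lay above line 2. The log2 fold change was 0.17 ± 0.051 in line 2 (adjusted p = 0.008) and 0.58 ± 0.049 in line 1 (adjusted p = 3.2e-08). Line 1 thus held 149% of the OdG WT level. The line 2 call rested on 1 library: without line 2 replicate 2 the log2 fold change was 0.14 and the adjusted p 0.088. In EG1, Lifr was at 70.5, 70.7 and 71.7 CPM in KO and at 66.0, 61.8 and 60.6 CPM in WT. The 3 KO libraries were close together and all above the WT libraries, with a log2 fold change of 0.18 ± 0.048 (adjusted p = 0.019). This call was lost without EG1 WT replicate 2 (0.16, adjusted p = 0.096), without EG1 WT replicate 3 (0.15, adjusted p = 0.13) and without EG1 KO replicate 3 (0.17, adjusted p = 0.073). Ordered by mean level, line 1 came first, EG1 KO and line 2 had overlapping libraries, and EG1 WT and OdG WT overlapped at the low end.

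Il6st encodes gp130, the chain shared by the receptors of the interleukin-6 family (mm10 chromosome 13, 112464070 to 112510086, plus strand). Its level was 165 and 167 CPM in line 2, 238 and 241 CPM in line 1, and 208 and 198 CPM in OdG WT. Line 2 lay below OdG WT and line 1 above it, with no overlap between the 3 groups. The log2 fold change was -0.28 ± 0.038 in line 2 (adjusted p = 6.6e-06) and 0.24 ± 0.038 in line 1 (adjusted p = 3.5e-05). For the mean of both lines it was -0.02 ± 0.033 (adjusted p = 0.64), a mean of values with opposite signs. EG1 KO held 114, 119 and 117 CPM and EG1 WT 108, 115 and 115 CPM, so that the groups overlapped (log2 fold change 0.05 ± 0.041, adjusted p = 0.50). All 6 EG1 libraries lay below all 6 OdG libraries.

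Jak1 encodes the main kinase bound to gp130 (mm10 chromosome 4, 101152367 to 101265282, minus strand). Its level was 128 and 124 CPM in line 2, 106 and 105 CPM in line 1, and 115 and 116 CPM in OdG WT. Line 2 was highest and line 1 lowest, without overlap, the reverse of the order of Il6st. The log2 fold change was 0.14 ± 0.039 in line 2 (adjusted p = 0.0059) and -0.13 ± 0.040 in line 1 (adjusted p = 0.012). Both calls were lost in some settings. Without line 2 replicate 1, the line 2 value was 0.12 (adjusted p = 0.068). Without line 1 replicate 1 or line 1 replicate 2, the line 1 value was -0.13 (adjusted p = 0.063) and -0.12 (adjusted p = 0.088), and with DESeq2 it was -0.13 (adjusted p = 0.095). EG1 KO held 79.5, 81.0 and 77.0 CPM, and EG1 WT held 75.4, 80.1 and 75.8 CPM. These groups overlapped, and the log2 fold change was 0.04 ± 0.046 (adjusted p = 0.70). By the GENCODE M21 annotation, the gene's span touches Raver2 on the other strand over 4 bases, and it contains a small nuclear RNA gene and a pseudogene.

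Jak2 encodes a second kinase of the receptor complex (mm10 chromosome 19, 29251828 to 29313080, plus strand) and had the fewest counts of the 6 genes, 198 to 315 per library. Its level was 17.8 and 17.5 CPM in line 2, 12.1 and 13.9 CPM in line 1, and 13.7 and 11.9 CPM in OdG WT. Line 2 lay above both other groups, which overlapped each other. The log2 fold change was 0.47 ± 0.11 in line 2 (adjusted p = 0.0011) and 0.02 ± 0.11 in line 1 (adjusted p = 0.89). The interval of the line 1 value (1.96 SE on each side) ran from -0.20 to 0.24, which does not show equality with WT. For the mean of both lines the value was 0.25 ± 0.10 (adjusted p = 0.035), with groups that overlapped. It lost its call upon leaving out OdG WT replicate 2 (0.15, adjusted p = 0.29), line 1 replicate 2 (0.20, adjusted p = 0.11), line 2 replicate 1 (0.24, adjusted p = 0.07) or line 2 replicate 2 (0.25, adjusted p = 0.06). EG1 KO held 12.2, 14.2 and 11.6 CPM, and EG1 WT held 12.6, 12 and 11 CPM. Here too the groups overlapped (log2 fold change 0.10 ± 0.10, adjusted p = 0.64).

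Stat3 encodes the transcription factor that carries the signal (mm10 chromosome 11, 100885098 to 100939540, minus strand). It was at 165 and 172 CPM in line 2, at 171 and 168 CPM in line 1 and at 207 and 207 CPM in OdG WT. The KO lines overlapped each other, and all 4 KO libraries lay below both WT libraries. The log2 fold change was -0.28 ± 0.038 in line 2 (adjusted p = 5.5e-06) and -0.28 ± 0.038 in line 1 (adjusted p = 7e-06). In EG1, KO held 128, 118 and 125 CPM and WT 128, 125 and 129 CPM. The groups overlapped, and the log2 fold change was -0.04 ± 0.04 (adjusted p = 0.61) with an interval from -0.12 to 0.04, which leaves out the OdG value. The 3' end of Stat3 overlaps Stat5a on the other strand over 72 bases, and the sources used here do not give the strand setting of the counting, so reads in that stretch cannot be assigned.

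Socs3 encodes the feedback inhibitor (mm10 chromosome 11, 117966079 to 117970047, minus strand) and is a textbook STAT3 target. Among the 6 genes it had the largest KO to WT difference in line 2. Its level was 151 and 150 CPM in line 2, 100 and 97.6 CPM in line 1, and 79.7 and 79.1 CPM in OdG WT. The 3 groups were apart, with line 2 highest and OdG WT lowest. The log2 fold change was 0.93 ± 0.040 in line 2 (adjusted p = 2.6e-12) and 0.32 ± 0.042 in line 1 (adjusted p = 4.5e-06), or 0.63 ± 0.036 for the mean of both lines (adjusted p = 1.1e-10). In EG1, KO held 150, 139 and 147 CPM and WT 144, 144 and 146 CPM. These groups overlapped, with a log2 fold change of 0.01 ± 0.039 (adjusted p = 0.95) and an interval from -0.07 to 0.08. The EG1 libraries of either genotype (139 to 150 CPM) were near OdG KO line 2. Higher Socs3 stood beside lower Stat3 in both OdG KO lines.

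The promoter windows of Socs3 and Stat3 are shown because the transcripts of STAT3's own gene and of its feedback target moved in opposite directions in OdG KO cells. They come from RefSeq (GRCm38.p6), run from 250 bases before to 50 bases after the annotated start, and are written 5' to 3' on the gene's strand. Capitals mark matches to TTCNNNGAA, the core of the STAT binding motif, which reads the same on both strands. The Socs3 window is chr11:117969317-117969616 and the Stat3 window chr11:100939491-100939790, both on the minus strand. The RefSeq start used for Socs3 is not the start of the gene span given above, and the window lies wholly inside that span.
Socs3: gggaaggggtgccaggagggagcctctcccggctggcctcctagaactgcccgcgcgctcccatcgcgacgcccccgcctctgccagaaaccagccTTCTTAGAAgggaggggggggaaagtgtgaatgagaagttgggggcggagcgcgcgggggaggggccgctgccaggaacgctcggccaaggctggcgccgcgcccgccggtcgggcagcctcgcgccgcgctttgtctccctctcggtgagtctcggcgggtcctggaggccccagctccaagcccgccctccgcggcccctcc
Stat3: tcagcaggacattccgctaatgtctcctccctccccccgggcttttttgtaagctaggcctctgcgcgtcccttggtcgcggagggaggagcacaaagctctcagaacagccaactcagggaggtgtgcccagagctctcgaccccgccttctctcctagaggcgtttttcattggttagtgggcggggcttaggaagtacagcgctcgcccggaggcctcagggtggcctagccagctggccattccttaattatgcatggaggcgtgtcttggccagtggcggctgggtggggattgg
The Socs3 window held 1 match, TTCTTAGAA, which begins 154 bases before the start, and the Stat3 window held none. All 6 genes had a window, and Socs3 was the 1 of them with a match, beside 8.3% of all 32851 RefSeq windows of this length (2726 windows). Of the 12 other STAT3 targets listed for ESCs, 10 had a window and 1, the kinase gene Sgk1, had a match, in 1 of its 6 windows. These are letter matches only, and binding was not measured.

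**Figure D2:**
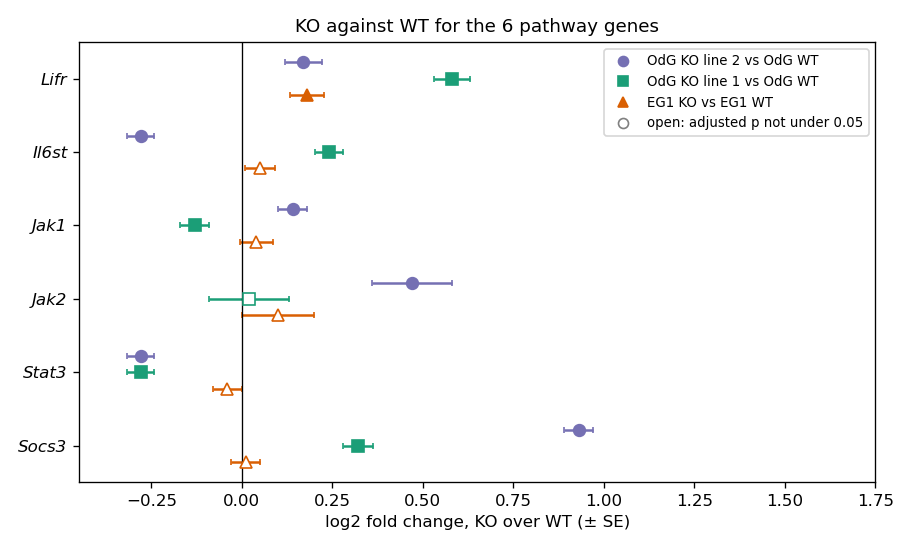
Log2 fold change of KO over WT (x axis) for each of the 6 genes (y axis), with bars of ± 1 SE derived from edgeR's test. Filled symbols have an adjusted p under 0.05. Socs3 lies at 0.93 in OdG KO line 2 and at 0.32 in line 1, while its EG1 value is 0.01. Il6st and Jak1 lie on opposite sides of 0 in the OdG KO lines.

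The 2 OdG KO lines differed from each other in 5 of the 6 genes, 3 higher and 2 lower in line 2, beside 18.6% and 19.2% of all genes. The comparisons of each line with WT share the WT libraries, and the direct contrast of line 2 over line 1 does not use them for its means. Both receptor chains were lower in line 2, Il6st by a log2 fold change of -0.52 ± 0.038 (adjusted p = 7.2e-09) and Lifr by -0.41 ± 0.049 (adjusted p = 3.7e-06). Both kinases were higher in line 2, Jak1 by 0.26 ± 0.039 (adjusted p = 4.3e-05) and Jak2 by 0.45 ± 0.11 (adjusted p = 0.003). The Jak2 call was lost without line 1 replicate 1 (0.34, adjusted p = 0.06). Socs3 was higher in line 2 by 0.61 ± 0.039 (adjusted p = 1.4e-09). Stat3 differed by 0.00 ± 0.039 (adjusted p = 0.99), with an interval from -0.07 to 0.08, and was the gene of the 6 whose change was most alike in both lines. In line 2, higher kinase and inhibitor transcripts thus stood beside lower gp130 transcript, and in line 1 both receptor chains were higher than in WT.

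The KO to WT change was compared between the parental lines with an interaction contrast over the 12 libraries, the OdG change (mean of both lines) minus the EG1 change. Here 2 of the 6 genes were called higher and 1 lower, beside 20.2% and 19.5% of all genes. For Socs3, the OdG change exceeded the EG1 change by 0.61 ± 0.055 on the log2 scale (adjusted p = 2.2e-10). For Stat3 the difference of changes was -0.25 ± 0.051 (adjusted p = 0.00023), with Stat3 lower in OdG KO. For Lifr, which was higher in KO cells of both parents, it was 0.19 ± 0.066 (adjusted p = 0.021). The OdG change of Lifr was a mean of 0.17 in line 2 and 0.58 in line 1, beside 0.18 in EG1. Line 2 alone thus changed about as EG1 did. The Lifr call was lost when any of 4 libraries was left out: OdG WT replicate 2 (0.15, adjusted p = 0.12), line 1 replicate 1 (0.17, adjusted p = 0.058), line 2 replicate 2 (0.18, adjusted p = 0.052) or EG1 WT replicate 1 (0.16, adjusted p = 0.068). When the 4 OdG KO libraries formed 1 group, which counts the difference between the lines as error, it was 0.20 (adjusted p = 0.38). The differences for Il6st (-0.08 ± 0.052, adjusted p = 0.23), Jak1 (-0.04 ± 0.056, adjusted p = 0.60) and Jak2 (0.14 ± 0.14, adjusted p = 0.45) were not called. For Il6st the OdG change was a mean of -0.28 in line 2 and 0.24 in line 1, and for Jak1 of 0.14 and -0.13. Their small differences therefore do not show that each OdG line changed as EG1 did.

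The WT cells of the parental lines also differed in these genes, 1 higher and 3 lower in EG1 WT than in OdG WT, beside 35.0% and 35.4% of all genes. Parental line and count table cannot be told apart in this contrast. Socs3 was higher in EG1 WT by a log2 fold change of 0.86 ± 0.043 (adjusted p = 1.5e-17). Il6st was lower by -0.85 ± 0.039 (adjusted p = 2.1e-18), Stat3 by -0.70 ± 0.039 (adjusted p = 2.2e-16) and Jak1 by -0.58 ± 0.043 (adjusted p = 2.3e-13). Neither Lifr (0.01 ± 0.051, adjusted p = 0.84) nor Jak2 (-0.11 ± 0.11, adjusted p = 0.37) was called. EG1 WT thus had low Stat3 and high Socs3 relative to OdG WT. Both OdG KO lines had the same pair of directions, in comparisons that share the OdG WT libraries. The transcript of the ligand Lif was at 10.1, 11.1 and 11.8 CPM in EG1 WT, against 1.67 and 1.59 CPM in OdG WT, with no overlap (log2 fold change 2.75 ± 0.18, adjusted p = 1.2e-14). In the KO comparisons Lif was not called, with a log2 fold change of 0.21 ± 0.31 in line 2 (adjusted p = 0.56), -0.56 ± 0.34 in line 1 (adjusted p = 0.18) and -0.01 ± 0.10 in EG1 (adjusted p = 0.97).

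Ratios of 2 genes within a library do not depend on its depth or scaling. The ratio of Socs3 to Stat3 counts was 0.914 and 0.868 in line 2, 0.587 and 0.582 in line 1, and 0.386 and 0.382 in OdG WT. The 3 OdG groups were apart. In EG1 the ratio was 1.17 in all 3 KO libraries and 1.12, 1.15 and 1.14 in the WT libraries, so EG1 cells of both genotypes lay above every OdG library. The ratio of Lifr to Il6st counts was 0.413 and 0.423 in line 2, 0.397 and 0.375 in line 1, and 0.306 and 0.306 in OdG WT. This ratio was higher than in WT in both OdG KO lines, although Il6st moved in opposite directions in them. In EG1 it was 0.616, 0.592 and 0.614 in KO and 0.611, 0.538 and 0.528 in WT, with overlap. The ratio of Jak2 to Jak1 counts was 0.139 and 0.140 in line 2, 0.114 and 0.133 in line 1, and 0.118 and 0.103 in OdG WT, against 0.150 to 0.176 in EG1 KO and 0.146 to 0.167 in EG1 WT. Line 1 and OdG WT overlapped in this ratio, and line 2 lay above both. The margin over line 1 replicate 2 was small, and Jak2 had only 221 counts in that library.

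**Figure D3:**
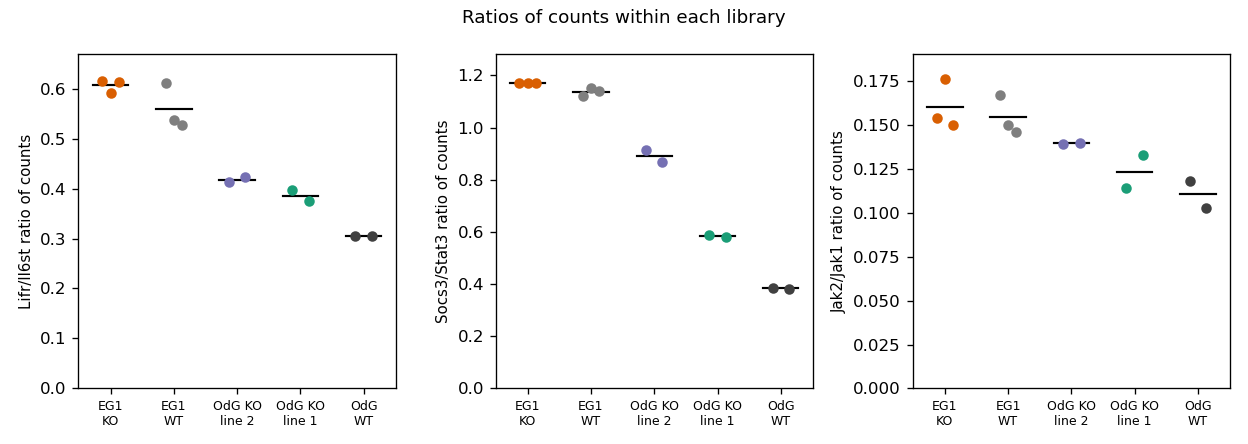
Ratio of counts of 2 genes within each library (y axis, no unit) by group (x axis), for Lifr to Il6st, Socs3 to Stat3 and Jak2 to Jak1. Each point is 1 library and the bar is the group mean. The Socs3 to Stat3 ratio averages 0.891 in OdG KO line 2, 0.585 in line 1 and 0.384 in OdG WT, and it is 1.12 or more in all EG1 libraries.

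Levels of different genes can be compared only per transcript length, here as CPM per kilobase of union exon length (GENCODE M21). On this scale Socs3 had the highest level of the 6 genes in every group, 52.0 CPM per kilobase in line 2, 34.2 in line 1 and 27.4 in OdG WT, against 50.2 in EG1 KO and 50.0 in EG1 WT. Lifr ranked above Jak2 alone in every group (5.77 to 8.58 CPM per kilobase) and Jak2 ranked last (2.36 to 3.50 CPM per kilobase). The order of Stat3, Il6st and Jak1 varied with the line. In line 2, Stat3 (17.7 CPM per kilobase) and Jak1 (17.5) were close, with Il6st at 15. In line 1, Il6st came first with 21.6 CPM per kilobase, ahead of Stat3 with 17.8 and Jak1 with 14.6. In OdG WT, Stat3 came first with 21.7 CPM per kilobase, ahead of Il6st with 18.3 and Jak1 with 16. In EG1 KO, Stat3 was at 13 CPM per kilobase, Jak1 at 10.9 and Il6st at 10.5, and in EG1 WT they were at 13.4, 10.7 and 10.1. The libraries of Jak1 and Il6st overlapped on this scale in EG1 KO, while in EG1 WT every Jak1 value lay above every Il6st value. The annotation used for counting is not given, so the exons counted may differ from these lengths. Small differences between genes on this scale, as between these, may depend on that. By these levels the receptor chain Lifr was scarcer as a transcript than its partner Il6st in each group.

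**Figure D4:**
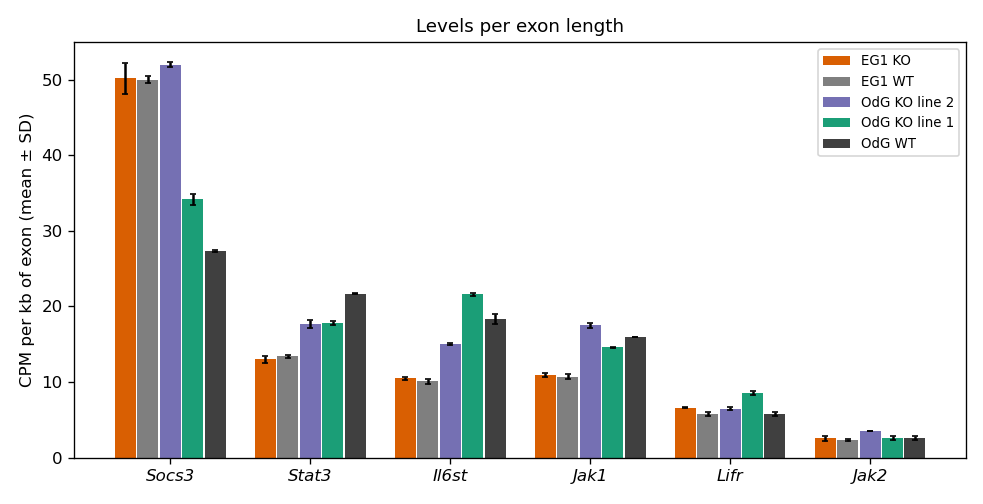
Mean level in CPM per kilobase of exon (y axis, from 0) of the 6 genes (x axis) in the 5 groups, with bars of ± 1 SD over 3 EG1 or 2 OdG libraries. Socs3 is highest in every group (27.4 to 52.0 CPM per kilobase) and Jak2 lowest (2.36 to 3.50 CPM per kilobase).

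Other ligands and receptors that signal through gp130 were mostly scarce. Of 13 listed, 11 were tested in OdG, where Il6 and Il11 had too few counts, and 7 in EG1. In line 2, 2 were higher and 5 lower, beside 30.0% and 29.8% of all genes. The median log2 fold change was -0.21, against -0.009 over all genes. In line 1, 1 was higher and 4 lower, beside 26.8% and 26.1% of all genes, with a median of -0.37 against -0.007. Cntfr, the receptor of ciliary neurotrophic factor, fell by 1.38 on the log2 scale in line 2 (adjusted p = 1.1e-07) and by 1.33 in line 1 (adjusted p = 2.3e-07). Il27ra, a chain of the interleukin-27 receptor, fell by 1.71 in line 2 (adjusted p = 5.6e-06) and by 0.82 in line 1 (adjusted p = 0.0025). The interleukin-11 receptor gene Il11ra1 fell by 1.29 in line 2 (adjusted p = 2.9e-05). The interleukin-6 receptor gene Il6ra rose by 0.44 in line 1 (adjusted p = 0.00046), and the cytokine gene Ctf1 fell by 0.98 there (adjusted p = 0.0021). In EG1 KO, 0 of the 7 tested were called by edgeR, beside 3.60% of all genes called higher and 4.06% lower.

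Among the 8 other JAK and STAT genes, 3 were higher and 4 lower in line 2 (median log2 fold change -0.20), beside 30.0% and 29.8% of all genes. In line 1, 2 were higher and 5 lower (median -0.43), beside 26.8% and 26.1% of all genes. The largest falls were those of Stat5a and Stat5b, the STAT genes next to Stat3 on chromosome 11 and close copies of each other, between which shared reads may be split. Stat5a fell by 1.43 on the log2 scale in line 2 (adjusted p = 8.4e-09) and by 1.15 in line 1 (adjusted p = 1.4e-07). Stat5b fell by 0.99 in line 2 (adjusted p = 8.5e-09) and by 1.25 in line 1 (adjusted p = 1.1e-09). In EG1 KO, Stat5b fell by 0.35 (adjusted p = 0.014), the 1 call of this list there, which was lost without EG1 WT replicate 2 (-0.25, adjusted p = 0.16). Of all genes, 3.60% were called higher and 4.06% lower in EG1 KO. Jak3, a kinase best known from lymphocytes, fell by 0.78 in line 2 (adjusted p = 5.3e-07) and by 0.54 in line 1 (adjusted p = 3.6e-05). Stat2, an interferon mediator, rose by 0.40 in line 2 (adjusted p = 0.00012) and fell by 0.47 in line 1 (adjusted p = 7.1e-05). Stat6, which acts in interleukin-4 signalling, fell by 0.48 in line 2 (adjusted p = 3.9e-05).

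Of 14 negative regulators other than Socs3, 2 were higher and 4 lower in line 2 (median log2 fold change -0.07), beside 30.0% and 29.8% of all genes. In line 1, 3 were higher and 5 lower (median -0.08), beside 26.8% and 26.1% of all genes. Socs2, a relative of Socs3, rose by 0.48 in line 2 (adjusted p = 5.4e-06) and by 0.55 in line 1 (adjusted p = 1.7e-06). In EG1 KO, Socs2 was called lower (-0.19, adjusted p = 0.049) with overlapping groups, and that call was lost with DESeq2 and without any 1 of EG1 WT replicates 1, 2 and 3 and EG1 KO replicates 1 and 3 (-0.21 to -0.14, adjusted p from 0.068 to 0.19). Pias1, an inhibitor of STAT proteins, fell by 0.56 in line 2 (adjusted p = 3.9e-07) and by 0.61 in line 1 (adjusted p = 2.4e-07). The phosphatase gene Ptpn6 fell by 0.45 in line 2 (adjusted p = 1.8e-05) and by 0.68 in line 1 (adjusted p = 2.9e-07). Ptpn1, another phosphatase gene, fell by 0.49 in line 2 (adjusted p = 2.5e-07) and rose by 0.32 in line 1 (adjusted p = 2.3e-05), opposite directions in the KO lines. Pias2 rose by 0.31 in line 1 (adjusted p = 1.4e-06). The rise of Socs3 in OdG KO cells therefore stood in a list whose other members moved in both directions.

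Of the 6 adaptors of the ERK branch, 4 were higher and 1 lower in line 2 (median log2 fold change 0.34), beside 30.0% and 29.8% of all genes. In line 1, 3 were higher and 2 lower (median 0.10), beside 26.8% and 26.1% of all genes. Gab1, a docking protein for SHP2, was at 197 and 196 CPM in line 2, at 37.6 and 39.3 CPM in line 1 and at 36.7 and 32.5 CPM in OdG WT. Line 2 was far above both other groups, with a log2 fold change over WT of 2.51 ± 0.051 (adjusted p = 1.4e-16) and over line 1 of 2.36 ± 0.051 (adjusted p = 9e-16). EG1 KO (178 to 182 CPM) and EG1 WT (171 to 180 CPM) overlapped and were near line 2, as they were for Socs3. In line 1 the Gab1 value of 0.15 (adjusted p = 0.047) lost its call in 9 of 12 alternatives (0.07 to 0.19, adjusted p from 0.059 to 0.41), among them those without OdG WT replicate 2 or without any 1 of the 4 KO libraries. Grb2 rose by 0.44 in line 2 (adjusted p = 2.6e-08) and by 0.25 in line 1 (adjusted p = 3.1e-05). Ptpn11, which encodes SHP2, rose by 0.35 in line 2 (adjusted p = 8.2e-06) and by 0.36 in line 1 (adjusted p = 9.1e-06). In EG1 KO, Ptpn11 rose by 0.15 (adjusted p = 0.019), a call lost without EG1 WT replicate 1 (0.12, adjusted p = 0.18), EG1 WT replicate 3 (0.14, adjusted p = 0.097) or EG1 KO replicate 3 (0.16, adjusted p = 0.051). Sos1, the exchange factor that activates RAS, rose by 0.33 in line 2 (adjusted p = 2.6e-05), and the adaptor gene Shc1 fell by 0.27 in line 1 (adjusted p = 2.5e-05). Gab2, a relative of Gab1, fell by 0.57 in line 1 (adjusted p = 0.016), a call lost without line 1 replicate 1 (-0.31, adjusted p = 0.25) and with DESeq2 (-0.56, adjusted p = 0.11).

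Of 12 genes listed as STAT3 targets in ESCs, 6 were higher and 2 lower in line 2 (median log2 fold change 0.10), 7 were higher and 2 lower in line 1 (median 0.19), and 1 was higher and 1 lower in EG1 KO (median 0.02). Klf5, a pluripotency transcription factor, was at 309 and 300 CPM in line 2, at 243 and 232 CPM in line 1 and at 156 and 163 CPM in OdG WT. The 3 groups were apart, in the same order as for Socs3, with log2 fold changes over WT of 0.94 ± 0.039 in line 2 (adjusted p = 1.8e-12) and 0.57 ± 0.040 in line 1 (adjusted p = 2.1e-09). Sgk1 was at 321 and 335 CPM in line 2, at 369 and 370 CPM in line 1 and at 215 and 213 CPM in OdG WT. Both KO lines were above WT, with log2 fold changes of 0.63 ± 0.035 in line 2 (adjusted p = 7.2e-11) and 0.79 ± 0.035 in line 1 (adjusted p = 6.6e-12). Klf4, a relative of Klf5, rose by 0.21 in line 2 (adjusted p = 9.7e-06) and by 0.29 in line 1 (adjusted p = 3.3e-07). The growth regulator Myc rose by 1.20 in line 1 (adjusted p = 4.6e-08), and its value in line 2 was -0.06 (adjusted p = 0.66). Pramel7, of a family of near-identical genes, had 89 and 90 counts in line 2, 14 and 9 in line 1 and 1 and 4 in OdG WT. It was called higher in both lines (adjusted p = 5.4e-09 in line 2). The line 1 call, at few counts, was lost without OdG WT replicate 1 (1.48) or line 1 replicate 1 (1.91). In EG1, Pramel7 rose by 0.71 in KO (adjusted p = 2.7e-08), with 458, 440 and 494 counts in KO against 288, 283 and 327 in WT. The survival gene Mcl1 fell by 0.13 in EG1 KO (adjusted p = 0.0065), a call lost without EG1 WT replicate 1 (-0.13, adjusted p = 0.051). Other listed targets were lower in OdG KO. Junb averaged 18.4 CPM in line 2 and 20.9 CPM in line 1, against 24.9 CPM in OdG WT. Mcl1 averaged 313 CPM in line 1, against 382 CPM in OdG WT. Pim1 averaged 303 CPM in line 2, against 327 CPM in OdG WT. The Junb call in line 1 was lost in 3 alternatives and the Pim1 call in line 2 in 7. The list counts above stood on the background of 26.1% to 30.0% of all genes called per direction in each OdG line. In EG1 KO these shares were 3.60% higher and 4.06% lower. The 10 ESC markers were also mostly higher, 9 higher and 1 lower in line 2 and 8 higher and 1 lower in line 1, and their part in the result was not tested.

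**Figure D5:**
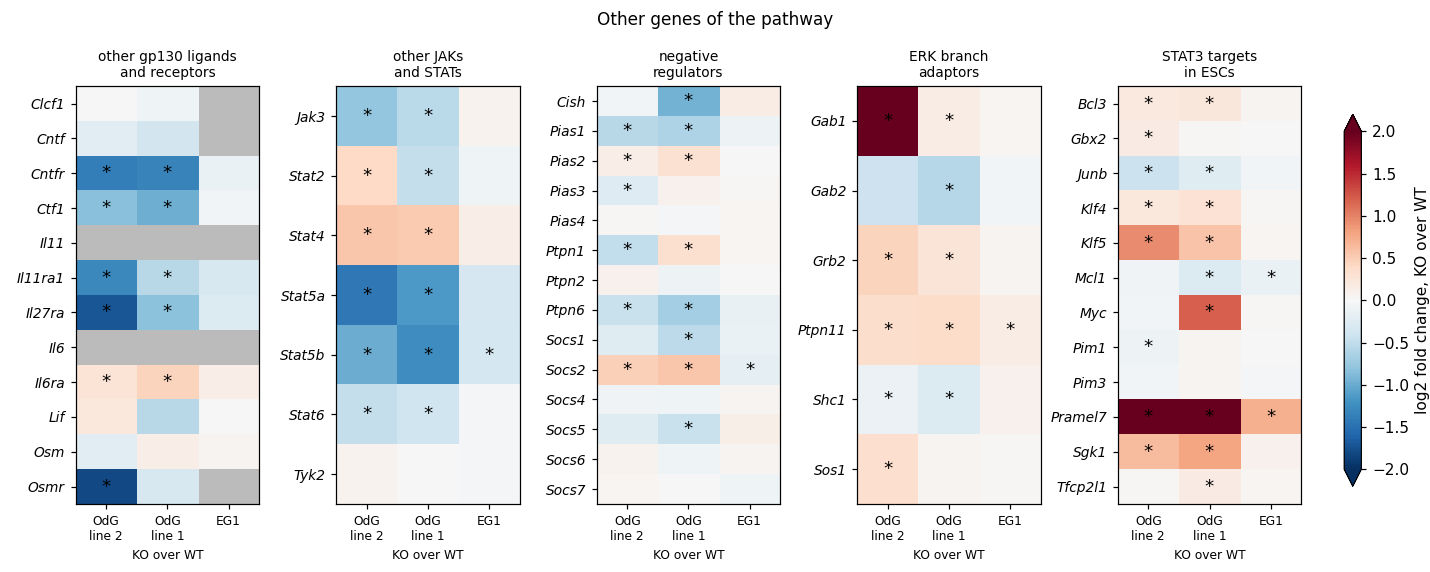
Log2 fold change of KO over WT (colour, limited to 2 in either direction) for reported genes of the 5 lists around the core pathway, in rows, for OdG KO line 2, OdG KO line 1 and EG1 KO, in columns. Asterisks mark an adjusted p under 0.05 and grey marks genes not tested. Gab1 in line 2 (2.51) and Pramel7 in both OdG lines go past the colour limit, and Stat5a and Stat5b are blue in both OdG lines.

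The genes whose levels followed each member most closely over the 12 libraries were found by the root mean square (RMS) difference of centred log2 CPM among 10303 genes, a description with no test. For Lifr these were Mycn (0.056), Itgb5 (0.0671) and Cdipt (0.0685). For Il6st they were Tmem131 (0.0363), Adam9 (0.0522) and Hltf (0.0525). For Jak1 they were Phf10 (0.0366), Zfp609 (0.0463) and Pabpc1 (0.0519), and for Jak2 Gpr160 (0.0837), Pcnx (0.0867) and Ranbp9 (0.0955). The Stat3 profile was nearest to those of Firre (0.0456), Tmx2 (0.0471) and Dag1 (0.0506), and that of Socs3 to Ajuba (0.0876), Gli3 (0.088) and Cacnb3 (0.0904). None of these genes belongs to the pathway lists, and the 12 libraries fall into only 5 groups.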

How the data were processed

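Per the labels' protocols, Trizol RNA went into NEBNext Ultra libraries. The mm10 build and the tools featureCounts 1.6.4, HISAT2 2.1.0, DESeq2 and CASAVA appear in the submitters' processing notes. The sources used here give no annotation, strand setting or filter for the counting. The 2 tables the authors deposited hold raw whole-number counts for 24421 gene symbols each.

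Counts were tested with edgeR 4.0.16 (quasi-likelihood, filterByExpr, TMM scaling, 1 mean per group, two-sided) in R 4.3.3, on 14413 genes in OdG, 14016 in EG1 and 14977 in the fit over both tables. Adjusted p-values (Benjamini-Hochberg) cover all genes tested, with a threshold of 0.05. Within groups, libraries varied beyond sampling noise (chi-square over degrees of freedom 1.81 to 3.70), so none was taken for a library deposited again. Each library was counted as 1 sample, as labelled. DESeq2 1.42.0, other scalings, no filter, a replicate block, other groupings and leaving out each library were the alternatives. Figures were drawn with matplotlib 3.10.9.

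The members and the lists were chosen with earlier results of these data known. Genes named were the 6 members, Etl4, up to 4 per list and comparison by smallest adjusted p, and 3 nearest in profile per member (pseudocount 0.5, mean of at least 5 CPM). Lif, Junb, Pim1, and values of a named gene in another line, are given outside that rule and were chosen after their values were seen. Some listed genes are counted but not reported by name here.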

Additional observations from a re-analysis of the deposited data

Results flagged for a closer look

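The change in Etl4 KO cells differed between parental lines for 3 of the 6 genes, by the interaction test of edgeR's quasi-likelihood fit over 12 libraries. Over all genes, 39.8% were called by this test. The OdG change minus the EG1 change was 0.61 on the log2 scale for Socs3 (adjusted p = 2.2e-10), -0.25 for Stat3 (adjusted p = 0.00023) and 0.19 for Lifr (adjusted p = 0.021). For Lifr, the OdG change was a mean of 0.17 in line 2 and 0.58 in line 1, beside 0.18 in EG1. The Lifr call was lost in 5 of 18 alternative settings.

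The OdG KO lines differed from each other in 5 of the 6 genes by the direct test of line 2 over line 1, beside 37.8% of all genes. The log2 differences were -0.41 for Lifr (adjusted p = 3.7e-06), -0.52 for Il6st (adjusted p = 7.2e-09), 0.26 for Jak1 (adjusted p = 4.3e-05), 0.45 for Jak2 (adjusted p = 0.003) and 0.61 for Socs3 (adjusted p = 1.4e-09). In each of these 5 genes, both libraries of line 2 lay on the same side of both libraries of line 1. The share of all genes separated in this way was not counted, so no result is drawn from it. Each line is 1 KO line, so line and genotype effects cannot be told apart. Groups of 2 or 3 libraries were too small for a test of single outlying libraries.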

How the results depend on the processing

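Of 570 values of the 6 genes under alternative settings, 530 kept their direction and side of the threshold, 22 lost a call and 18 changed sign. The sign changes were in values that were not called. With total counts and no scaling factor, the log2 change was -0.04 for Jak2 in line 1, -0.04 for Jak1 and 0.20 for Jak2 (call lost) in the mean of the OdG lines, -0.01 for Socs3 in EG1 KO and -0.03 for Lifr in EG1 WT over OdG WT. DESeq2 gave -0.13 for Jak1 in line 1 and 0.25 for Jak2 in the mean of the lines, both without a call, and called 3406 genes for line 2 over line 1, against 5454 by edgeR, and 703 in EG1, against 1074. With the OdG KO libraries as a single group, the values were 0.39 for Lifr (call lost), 0.00 for Il6st, 0.27 for Jak2 (call lost) and 0.20 for the Lifr difference between parents (call lost). That setting called 4609 genes for OdG KO, against 8638, and 3068 for the difference, against 5958. Stat3 in line 2 over line 1 was 0.00 with no filter. The causes were not tested.

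Leaving out 1 library at a time gave -0.13 to -0.12 for Jak1 and -0.08 to 0.13 for Jak2 in line 1, and 0.14 to 0.21 for Lifr and 0.12 to 0.16 for Jak1 in line 2. For the mean of both lines it gave -0.05 to 0.02 for Il6st, 0.00 to 0.02 for Jak1 and 0.15 to 0.35 for Jak2. For line 2 over line 1 it gave 0.34 to 0.55 for Jak2 and -0.03 to 0.03 for Stat3. In EG1 KO it gave 0.15 to 0.21 for Lifr, -0.02 to 0.04 for Socs3 and 638 to 1213 called genes, with 638, 672 and 658 when EG1 WT replicate 1, 2 or 3 was left out. The Lifr difference between parents was 0.15 to 0.23, and Lifr in EG1 WT over OdG WT was -0.02 to 0.05. Where an OdG group is left with 1 library, that library is assumed to vary like the other groups.

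Same-numbered libraries showed no common deviation from their group means (correlations from -0.04 to 0.07 in OdG and from -0.04 to -0.01 in EG1). These correlations gave no sign of pairing but cannot exclude it. With 2 libraries per OdG group, the deviations of replicates 1 and 2 mirror each other, so each pair of OdG groups gives only 1 value. With the replicate block, 7515 genes were called in line 1, 8566 in line 2 and 906 in EG1 KO, and no call of the 6 genes changed. Jak2, with 198 to 315 counts per library, had the widest errors of the 6 genes.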
